A study of Mus musculus with 11 samples.

Results

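The promoters of 60 homeobox and paired-box transcription factor genes that lay out the regions of the embryonic brain and body were examined in a chromatin immunoprecipitation (ChIP) study of ST18, a zinc finger factor of the MYT1 family. The rule used gene symbols and no read counts, but it was chosen with earlier results of these data known. It took every promoter of the count table of the Lhx, Dlx, Pax, Emx, Otx, Irx, Msx, Gbx and En families and the Six-family (symbol and number alone). Every symbol that starts with Nkx was also taken, for 60 of 21881 promoters in all. The Nkx symbols include Nkx2-2as, a transcript antisense to Nkx2-2. Each promoter is a window of 1000 bp with a whole-number count of reads in 1 ST18 column and 1 input column. The series labels 2 mouse ChIP libraries made through an HA tag and 1 library of input genomic DNA, all in vitro samples from cells labelled TN and typed as brain cells. The input sample is called input in its title and description, which the ratios here follow, although its molecule label also names HA ChIP. Whether the ST18 column holds either or both ChIP libraries is not stated, so there is no replicate for any value, and no difference below has a replicate check. Cells carrying a tag are a model of binding by the tagged protein, and the labels do not say how it was expressed. The other 8 libraries of the series, RNA from sorted cortical cells with an ST18 knockdown or a non-targeting control, were not analysed here.

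Homeobox factors bind DNA through a homeodomain and act as selector genes: which of them a progenitor expresses helps to fix the region, and later the cell type, that it forms. In the telencephalon, Emx and Lhx2 mark and pattern the dorsal side that becomes cortex, Pax6 acts in dorsal progenitors, and Nkx2-1, Dlx, Lhx6 and Lhx8 act on the ventral side that makes interneurons. En, Gbx and several Pax genes pattern the midbrain, hindbrain and spinal cord, and many Irx, Msx, Nkx and Six-family genes act mainly in heart, limb, kidney, muscle, gut or skeleton. A number of these genes work in more than 1 tissue, so the grouping by tissue is a simplification.

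The promoter sequences below are those of the members with the most and the least ST18 signal relative to input that have an entry in the RefSeq promoter table (build GRCm38.p6), with Lhx2 as a second cortical selector beside Emx2. Among those with an entry, Msx3 and Emx2 stood highest and Pax1 and Gbx2 lowest. Each runs 5′ to 3′ from 250 bases before to 50 bases after the annotated start, and capitals mark matches to AAGTT, the core of the motif known for the MYT1 zinc finger family, on either strand. The position of the 1000 bp count windows is not given in the sources used here, so these stretches may cover only part of them, and Lhx2 has a pair of entries of which either may be the one counted.
Msx3, chr7:140049039-140049338, minus strand: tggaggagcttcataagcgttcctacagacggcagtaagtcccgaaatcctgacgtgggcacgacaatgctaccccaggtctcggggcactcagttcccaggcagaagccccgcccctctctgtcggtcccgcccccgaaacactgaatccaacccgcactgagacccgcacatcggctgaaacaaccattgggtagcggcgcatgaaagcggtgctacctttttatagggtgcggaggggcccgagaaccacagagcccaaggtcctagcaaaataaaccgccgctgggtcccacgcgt
Emx2, chr19:59458440-59458739, plus strand: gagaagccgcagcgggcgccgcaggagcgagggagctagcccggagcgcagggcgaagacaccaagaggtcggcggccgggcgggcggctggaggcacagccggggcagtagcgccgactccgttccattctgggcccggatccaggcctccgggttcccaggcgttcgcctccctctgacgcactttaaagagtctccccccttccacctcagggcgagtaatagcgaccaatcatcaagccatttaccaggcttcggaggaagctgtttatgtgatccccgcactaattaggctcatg
Pax1, chr2:147364744-147365043, plus strand: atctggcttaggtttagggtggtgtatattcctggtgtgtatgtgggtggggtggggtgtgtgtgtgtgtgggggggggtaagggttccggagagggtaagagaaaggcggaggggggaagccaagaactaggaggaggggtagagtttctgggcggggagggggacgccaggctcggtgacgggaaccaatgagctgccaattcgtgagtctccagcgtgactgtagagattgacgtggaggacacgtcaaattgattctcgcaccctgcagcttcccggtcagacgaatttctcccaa
Gbx2, chr1:89931127-89931426, minus strand: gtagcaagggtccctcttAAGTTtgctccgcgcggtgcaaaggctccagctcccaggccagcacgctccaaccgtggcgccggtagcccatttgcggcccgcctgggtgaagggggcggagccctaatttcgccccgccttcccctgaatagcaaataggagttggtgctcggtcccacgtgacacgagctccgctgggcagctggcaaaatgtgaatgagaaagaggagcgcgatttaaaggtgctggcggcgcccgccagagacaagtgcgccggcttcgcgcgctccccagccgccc
Lhx2, first entry, chr2:38339031-38339330, plus strand: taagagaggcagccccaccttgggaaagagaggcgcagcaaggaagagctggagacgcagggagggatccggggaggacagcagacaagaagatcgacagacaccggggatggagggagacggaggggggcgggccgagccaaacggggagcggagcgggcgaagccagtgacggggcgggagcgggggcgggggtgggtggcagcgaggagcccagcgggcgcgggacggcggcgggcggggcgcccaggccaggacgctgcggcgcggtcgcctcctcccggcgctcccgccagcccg
Lhx2, second entry, chr2:38351058-38351357, plus strand: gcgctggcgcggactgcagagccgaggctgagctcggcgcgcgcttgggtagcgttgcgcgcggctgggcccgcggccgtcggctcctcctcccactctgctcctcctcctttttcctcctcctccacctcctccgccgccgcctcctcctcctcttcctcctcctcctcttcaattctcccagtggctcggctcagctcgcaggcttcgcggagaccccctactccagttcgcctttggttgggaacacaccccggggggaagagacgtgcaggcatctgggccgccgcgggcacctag
None of these 6 stretches held the longer motif AAAGTTT on either strand, and the Gbx2 stretch held the single match to AAGTT, 232 bases before the start. Over all 32851 promoters of the same length in the table, 4.74% held AAAGTTT and 39.3% held AAGTT, counting both strands, and every AAAGTTT also contains an AAGTT. The share of G and C in the 6 stretches ran from 57.3% in Pax1 to 74.7% in the first Lhx2 entry. Its median was 52.7% in the RefSeq table and 57.3% over the promoters there of genes in the count table. The 6 stretches held from 13 CpG dinucleotides in Pax1 to 34 in the first Lhx2 entry, against medians of 7 and 14. Pax1 was thus no richer than the promoters of genes in the count table. Since 42 of the 60 members (70%) had an entry, under the 80% needed, a check of base composition or motifs over the members is void. A match or its absence describes these letters only.

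None of the 60 promoters reached the sizes of enrichment set here, which few of all promoters reach. For the log2 enrichment, 16 reads are added to the scaled ST18 count and to the input count before the log2 of their quotient is taken, so it is pulled towards 0 at low counts. Its median over the members was 0.08, against 0.04 over all promoters, and it ranged from -0.42 at Dlx5 to 0.52 at Msx3. No member reached a log2 enrichment of 0.58, which 1.15% of all promoters did, none reached 1 (0.0548% of all), and none lay at or below -0.58 (0.219% of all). At shares this small few or none would be found among 60 promoters, and low counts pull the values towards 0. These counts therefore do not set the members apart from all promoters. The members' values were about as spread as those of all promoters, with an SD across windows of 0.237 against 0.225. Of the 60, 35 lay above the median of all promoters (49.6% of all windows do, since some lie at the median itself), 8 lay in the highest 10% of windows (10.3% of all with ties) and 9 in the lowest 10% (10.1% of all with ties).

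**Figure D1:**
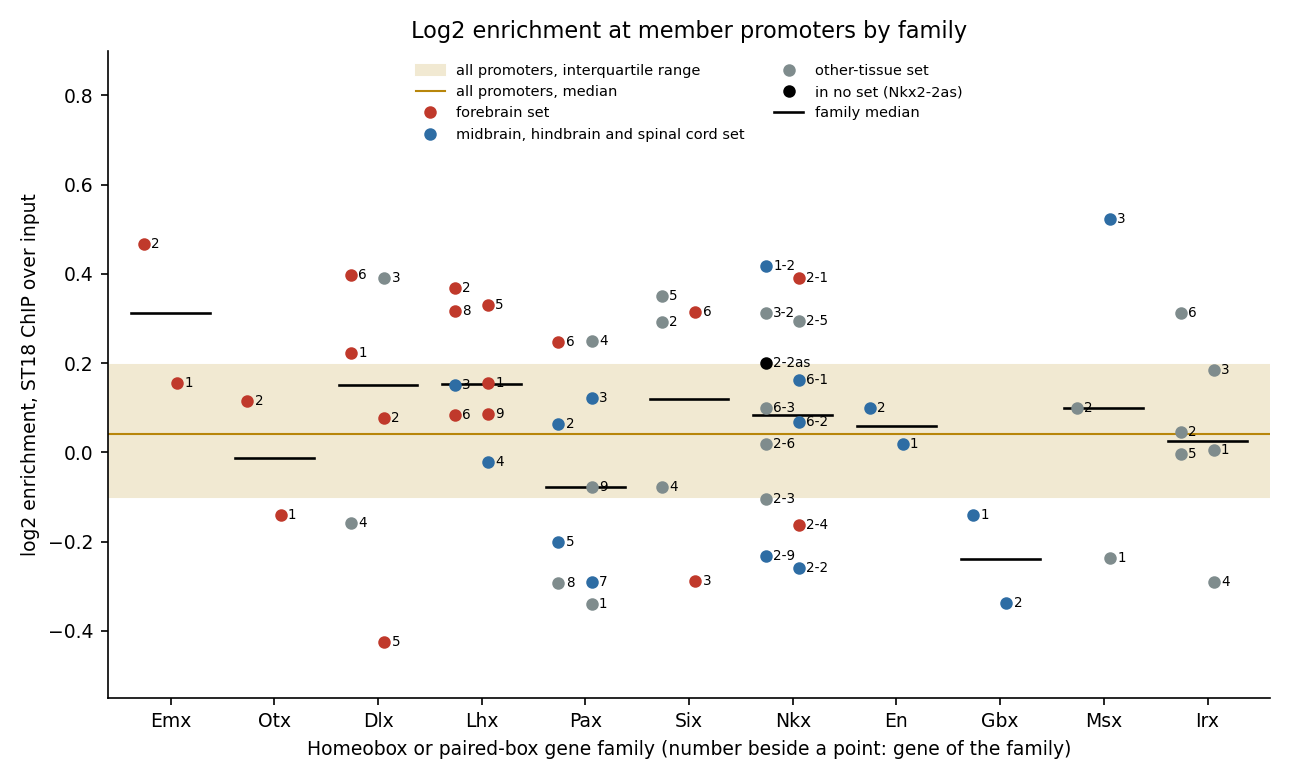
Log2 enrichment of the ST18 ChIP over input (vertical axis) for 58 of the 60 member promoters, arranged by gene family (horizontal axis) and coloured by tissue set; black bars are medians over all members of a family, and the line and band are the median and interquartile range of all promoters. Both Emx points lie above the median of all promoters, both Gbx points lie below it, and Msx3 at 0.52 and Dlx5 at -0.42 are the extremes.

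The ratio of reads was examined next. Over all promoters there were 2.74 ST18 reads for each input read, and dividing a window's own ratio by that number gave its fold, with an exact (Clopper-Pearson) 95% binomial interval in brackets below. A value introduced by "at" is a log2 enrichment. Such an interval covers counting error only, because no value has a replicate. It may also be too narrow, since PCR copies of a molecule could not be told from separate molecules. In none of the 60 did the interval lie above 1, as it did in 2.37% of all promoters, and in 1, Dlx5, it lay below 1, as in 3.24% of all. The exact binomial test, two-sided and run per window with Benjamini-Hochberg adjustment over all 21881 windows, called no member (0.0366% of all windows were called higher and 0.00914% lower), and the lowest adjusted p among the members was 0.575, for Dlx5. At an unadjusted p under 0.05 in the exact test, 1 member was higher, Msx3 (2.49% of all windows), and 2 were lower, Dlx5 and Pax1 (4.39% of all windows). This test compares the reads of the deposited columns and not conditions. At the members' median depth of 28 reads in both columns together, also the median of all promoters, a window needed 26 ST18 reads against 2 input reads, a 4.75-fold ratio, before its interval lay above 1. For the interval to lie below 1, 15 ST18 reads against 13 input reads, a 0.422-fold ratio, were needed. Single windows with a ratio between these bounds could not be told from all promoters at this depth.

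Of the 7 dorsal forebrain genes, 6 lay above the median of all promoters. Emx2, which patterns the areas of the cortex, held 39 ST18 reads and 7 input reads, with a log2 value of 0.47 and a fold of 2.04 (0.901 to 5.40), the second highest of the members. Emx1, its paralog in the dorsal telencephalon, held 21 ST18 and 6 input reads, for a log2 value of 0.16 and a fold of 1.28 (0.499 to 3.87). Lhx2, which sets cortical identity, held 37 ST18 and 8 input reads, for a log2 value of 0.37 and a fold of 1.69 (0.775 to 4.20). All 3 lay above the median of all promoters, and all 3 intervals included 1. Pax6, a factor of dorsal progenitors and of the eye, held 22 ST18 and 5 input reads, for a log2 value of 0.25 and a fold of 1.61 (0.594 to 5.44). Lhx5, active in the cortical hem and in spinal interneurons, held 38 against 9 reads, at a log2 enrichment of 0.33. By ST18 reads alone, without input, Emx2, Lhx5 and Lhx2 held the most reads of the 60. Lhx9, a factor of the diencephalon and of the gonad, lay near the middle at 0.09 with 26 against 9 reads. Otx1, an anterior brain factor later active in deep cortical layers, was the lowest of the dorsal genes, with 21 against 11 reads, at -0.14 and 0.698-fold (0.322 to 1.60). Its paralog Otx2, needed for the forebrain and midbrain to form, held 14 ST18 and 4 input reads, for a log2 value of 0.12 and a fold of 1.28 (0.402 to 5.34).

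Among the ventral forebrain genes, 6 of 7 lay above the median of all promoters, and the exception, Dlx5, was the lowest of all 60. Input was low in this subset, with a median of 5 reads against 7 over all promoters. Of all promoters with 5 or fewer input reads, 74.5% had a log2 enrichment above 0. Nkx2-1, which specifies the medial ganglionic eminence and also acts in thyroid and lung, held 22 ST18 against 3 input reads, at 0.39 and 2.68-fold (0.805 to 14.0). Lhx8, a factor of cholinergic neurons made there, held 22 against 4 reads, at 0.32. Lhx6, which acts in interneurons of the same origin, held 18 against 6 reads and stood at 0.08, closer to the median of all promoters than Nkx2-1 or Lhx8. The Dlx genes, which drive the differentiation and migration of interneurons, did not share a level. Dlx6 held 19 ST18 and 2 input reads, for a log2 value of 0.40 and a fold of 3.47 (0.838 to 30.7), an estimate that rests on 2 input reads. Dlx1 held 21 ST18 and 5 input reads, for a log2 value of 0.22 and a fold of 1.54 (0.563 to 5.21), and Dlx2 held 23 ST18 and 8 input reads, for a log2 value of 0.08 and a fold of 1.05 (0.454 to 2.72). Dlx5 held 23 ST18 and 18 input reads, for a log2 value of -0.42 and a fold of 0.467 (0.241 to 0.918). These 4 promoters had nearly the same number of ST18 reads, from 19 to 23, and differed in input reads, from 2 to 18, where the median of all promoters was 7.

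The remaining forebrain members act at the anterior end and in the hypothalamus or the eye, and their values were split. Six6, a factor of retina and pituitary, held 28 against 6 reads, at 0.31. Six3, a repressor of Wnt signalling needed for the anterior forebrain, held 9 ST18 and 8 input reads, for a log2 value of -0.29 and a fold of 0.411 (0.141 to 1.22), the fewest ST18 reads of any member. Nkx2-4, expressed in the hypothalamus, held 20 against 11 reads, at -0.16. Lhx1, active in the head organizer and in Purkinje cells, held 32 against 10 reads, at 0.16. Six6 and Six3, close relatives with overlapping sites of action, thus lay on opposite sides of the median of all promoters, but their intervals overlapped.

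**Figure D2:**
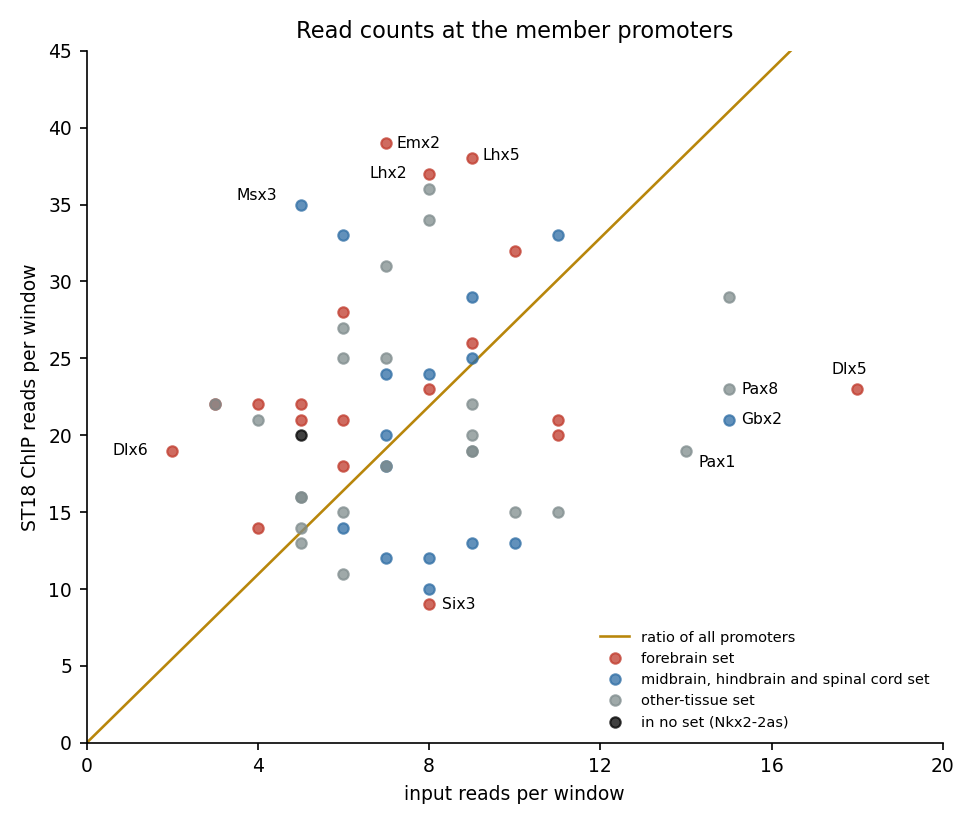
ST18 ChIP reads (vertical axis) against input reads (horizontal axis) in each of the 60 member windows, coloured by tissue set, with the line of the ratio over all promoters; windows with the same counts overlap. Dlx5, with 23 ST18 and 18 input reads, lies furthest to the right, and Emx2, with 39 and 7, lies highest.

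Of the 16 promoters of the midbrain, hindbrain and spinal cord set, 8 lay above the median of all promoters, and the set held both the highest member and one of the lowest. Msx3, which in the mouse is expressed in the dorsal neural tube, held 35 ST18 and 5 input reads, for a log2 value of 0.52 and a fold of 2.56 (0.998 to 8.37). Its paralogs of the other-tissue set were lower: Msx2, a factor of limb and skull, held 16 against 5 reads, at 0.10, and Msx1, which acts in palate and tooth, held 15 against 10, at -0.24. Nkx1-2, expressed in the caudal neural plate, held 33 ST18 and 6 input reads, for a log2 value of 0.42 and a fold of 2.01 (0.832 to 5.87). Gbx2, which sets the midbrain-hindbrain boundary with Otx2, held 21 ST18 and 15 input reads, for a log2 value of -0.34 and a fold of 0.512 (0.251 to 1.07), and its paralog Gbx1 held 12 against 7, at -0.14. The engrailed genes of the same boundary stood near the median of all promoters: En1 held 18 against 7 reads, at 0.02, and En2 held 24 against 8, at 0.10. Summed over its members, Gbx was the family with the lowest ratio, 0.548-fold that of all promoters (0.310 to 0.987). It is 1 of 11 families compared and rests on 2 windows.

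Genes of the ventral and dorsal spinal cord lay on both sides of the median of all promoters. Nkx2-2, which specifies ventral interneurons and also acts in oligodendrocytes and pancreas, held 10 ST18 and 8 input reads, for a log2 value of -0.26 and a fold of 0.457 (0.162 to 1.33). Its antisense transcript Nkx2-2as held 20 against 5, at 0.20. Nkx6-1 and Nkx6-2, which help to pattern motor neuron progenitors, stood at 0.16 and 0.07, and Nkx2-9, of the floor plate region, at -0.23. Pax7, a factor of the dorsal neural tube and of muscle stem cells, held 13 ST18 and 10 input reads, for a log2 value of -0.29 and a fold of 0.475 (0.192 to 1.21), whereas its paralog Pax3 held 33 against 11 reads, at 0.12. Pax2 and Pax5, which act at the midbrain-hindbrain boundary, stood at 0.06 and -0.20, and the motor neuron and pituitary genes Lhx3 and Lhx4 at 0.15 and -0.02.

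In the other-tissue set, 11 of 24 promoters lay above the median of all promoters. Pax1, a factor of the sclerotome that forms the vertebrae, was the lowest, with 19 against 14 reads, at -0.34 and 0.496-fold (0.236 to 1.07), while its paralog Pax9 held 19 against 9, at -0.08. Pax8, needed for thyroid and kidney, held 23 ST18 and 15 input reads, for a log2 value of -0.29 and a fold of 0.560 (0.280 to 1.15). Pax4, a factor of the endocrine pancreas, lay on the other side at 0.25, with 25 against 6 reads. The Pax family as a whole had the lowest summed ratio after Gbx, 0.802-fold that of all promoters (0.620 to 1.05), with 4 of 9 members above the median of all promoters and 3 in the lowest 10% of windows.

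Six5, expressed in many tissues, held 36 ST18 and 8 input reads, for a log2 value of 0.35 and a fold of 1.64 (0.752 to 4.10), and Dlx3, of skin, tooth and placenta, held 22 ST18 and 3 input reads, for a log2 value of 0.39 and a fold of 2.68 (0.805 to 14.0). Both were among the 8 highest members, so high values were not limited to genes of the nervous system. The kidney progenitor gene Six2 stood at 0.29, and the muscle and placode gene Six4 at -0.08. Nkx2-5, a master gene of the heart, stood at 0.29 with 21 against 4 reads, its relative Nkx2-6 at 0.02 and the gut and spleen gene Nkx2-3 at -0.10. Nkx3-2, of the skeleton, stood at 0.31, the stomach gene Nkx6-3 at 0.10 and Dlx4 at -0.16. The Irx genes, which act in heart, limb and neural tube, ranged from Irx6 at 0.31 to Irx4, a factor of the heart ventricle, at -0.29 (15 against 11 reads, 0.498-fold, 0.214 to 1.20). Irx3 stood at 0.18, Irx2 at 0.05, Irx1 at 0.01 and Irx5 at -0.0045.

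**Figure D3:**
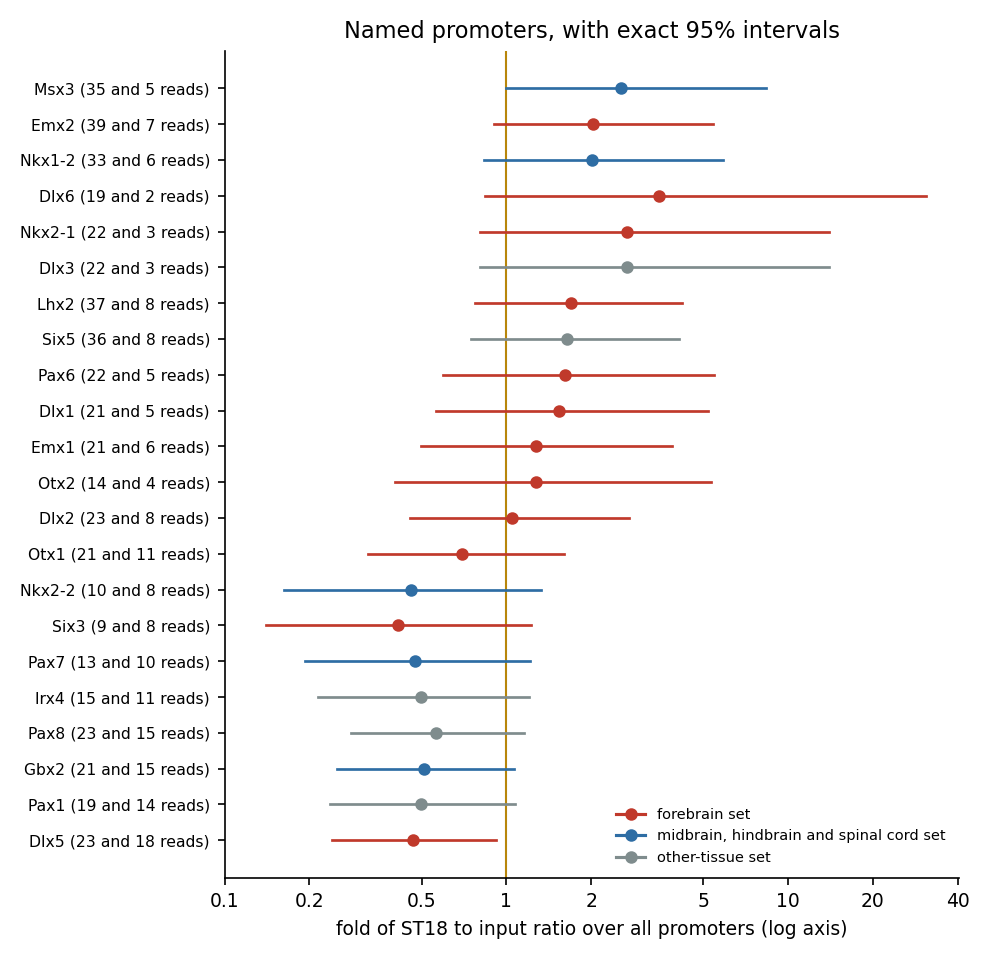
Fold of the ST18 to input ratio over that of all promoters (horizontal log axis) with exact 95% intervals for 22 named member promoters (vertical axis, with ST18 and input reads in brackets), coloured by tissue set. The interval of Dlx5 lies below 1, that of Msx3 begins at 0.998, and the others include 1.

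Forebrain genes were then compared with those of other tissues, in sets chosen with earlier results of these data known. The 19 forebrain promoters held 455 ST18 and 140 input reads, with a median log2 enrichment of 0.16. The 24 other-tissue promoters held 505 and 189 reads, with a median of 0.02, and the 16 of midbrain, hindbrain and spinal cord held 336 and 132 reads, with a median of 0.04. Against all promoters, the summed ratio was 1.19-fold in the forebrain set (0.981 to 1.45), 0.977-fold in the other-tissue set (0.825 to 1.16) and 0.930-fold in the midbrain, hindbrain and spinal cord set (0.759 to 1.15). The forebrain ratio was 1.22-fold that of other tissues, with an exact conditional interval of 0.938 to 1.58, and 1.28-fold that of midbrain, hindbrain and spinal cord (0.959 to 1.70). Both intervals included 1, so the sets were not told apart at this depth, and differences of up to about these upper bounds are compatible with the counts.

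More forebrain promoters than not lay above the median of all promoters, 15 of 19 beside 49.6% of all windows, and the exceptions were Dlx5, Six3, Nkx2-4 and Otx1. In the highest 10% of windows there were 4 forebrain members, Emx2, Dlx6, Nkx2-1 and Lhx2, and in the lowest 10% there were 2, Dlx5 and Six3. Within the forebrain set the 7 dorsal genes had a median of 0.25 and a summed fold of 1.36 (1.002 to 1.86), an interval just above 1, and the 7 ventral genes a median of 0.22 and 1.18-fold (0.840 to 1.67). The dorsal subset is 1 of many sets, families and lists compared, and it was not examined without single genes. Against other tissues its ratio was 1.39 (0.977 to 1.99), an interval that included 1. The ratio of dorsal to ventral genes was 1.15 (0.719 to 1.84). Leaving out each forebrain gene in turn moved the summed ratio between 1.14-fold without Emx2 and 1.29-fold without Dlx5.

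By whole families, Lhx and Emx had the highest summed ratios, at 1.29-fold (0.970 to 1.75) over 8 promoters and 1.69-fold (0.916 to 3.35) over 2. Lhx was also the most even of the larger families: 7 of its 8 promoters lay above the median of all promoters, with an SD across windows of 0.140 on the log2 scale, against 0.326 over the 6 Dlx promoters. Msx stood at 1.21-fold (0.722 to 2.10), the Nkx and Six-family promoters at 1.10-fold each (0.868 to 1.42 and 0.786 to 1.58), En at 1.02-fold (0.556 to 1.99), Irx at 0.991-fold (0.699 to 1.43), Dlx at 0.982-fold (0.707 to 1.38) and Otx at 0.853-fold (0.454 to 1.68). When Emx, Otx, Dlx and Lhx were set whole against Irx, Msx and the Six-family genes, the ratio was 1.09 (0.806 to 1.46).

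**Figure D4:**
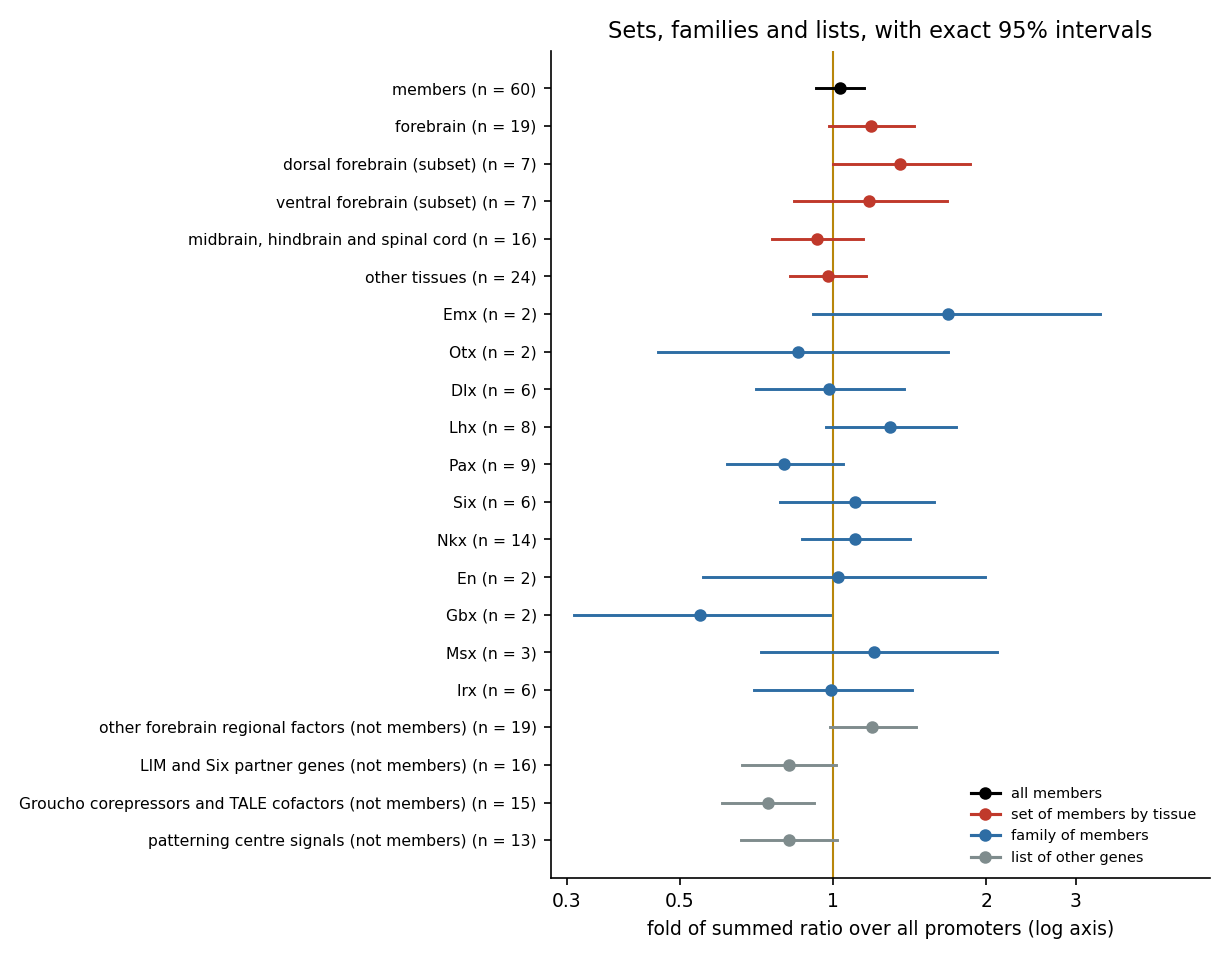
Fold of the summed ST18 to input ratio over that of all promoters (horizontal log axis) with exact 95% intervals for all members, tissue sets, families and lists of other genes (vertical axis, with the number of promoters). The forebrain set lies at 1.19 and the other-tissue set at 0.977, with overlapping intervals, the interval of the dorsal forebrain subset begins at 1.002, and the Gbx interval and that of the Groucho and TALE list lie below 1.

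The input count moved with the log2 enrichment, which contains it. Of the 12 members with 10 or more input reads, 10 had a log2 enrichment below 0, as did 75.2% of all promoters with that many. All 14 members with 5 or fewer input reads had one above 0, as did 74.5% of all such promoters. By ST18 reads alone, 9 members were above the 90th percentile of all promoters, 31 reads (9.35% of all), and by input reads alone 5 were above that of 12 reads (7.62% of all). Of these 9, 4 were forebrain genes (Emx2, Lhx5, Lhx2 and Lhx1), 3 were of the midbrain, hindbrain and spinal cord set (Msx3, Nkx1-2 and Pax3) and 2 were of the other-tissue set (Six5 and Nkx3-2). The 5 with many input reads were Dlx5, Gbx2, Pax8, Dlx4 and Pax1, all of them below 0 in log2 enrichment. The part of input variation in the low values was not tested.

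Several members lie side by side in the genome in gene clusters, and windows of close neighbours may share reads. In the gene order of the RefSeq table, 15 pairs of members were direct neighbours among protein-coding genes, covering 25 members. Their log2 values differed by a median of 0.19, against 0.20 over all 17885 pairs of neighbouring genes in the count table, so neighbours among the members were about as unlike as neighbours elsewhere. The widest gap was between Dlx6 and Dlx5, 0.82 on the log2 scale, and the ratio of Dlx6 was 7.43 times that of Dlx5 (1.43 to 72.1). It was the single pair of the 15 whose interval did not include 1. The share of such pairs among all neighbouring genes was not computed. This pair joins the lowest member, Dlx5, to a promoter with 2 input reads, and was singled out after the values were seen. Nkx2-1 and Nkx2-9 differed by 0.62 (5.08 times, 0.990 to 33.2), Six2 and Six3 by 0.58 (4.00 times, 0.904 to 17.9) and Dlx3 and Dlx4 by 0.55 (3.79 times, 0.893 to 22.6). Irx1 and Irx2, by contrast, differed by 0.04. The protein-coding run Pax1, Nkx2-2 and Nkx2-4 lay below 0, at -0.34, -0.26 and -0.16, but the interval of each fold included 1. Nkx2-2as, antisense to Nkx2-2 and in none of these pairs, stood above 0, at 0.20.

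**Figure D5:**
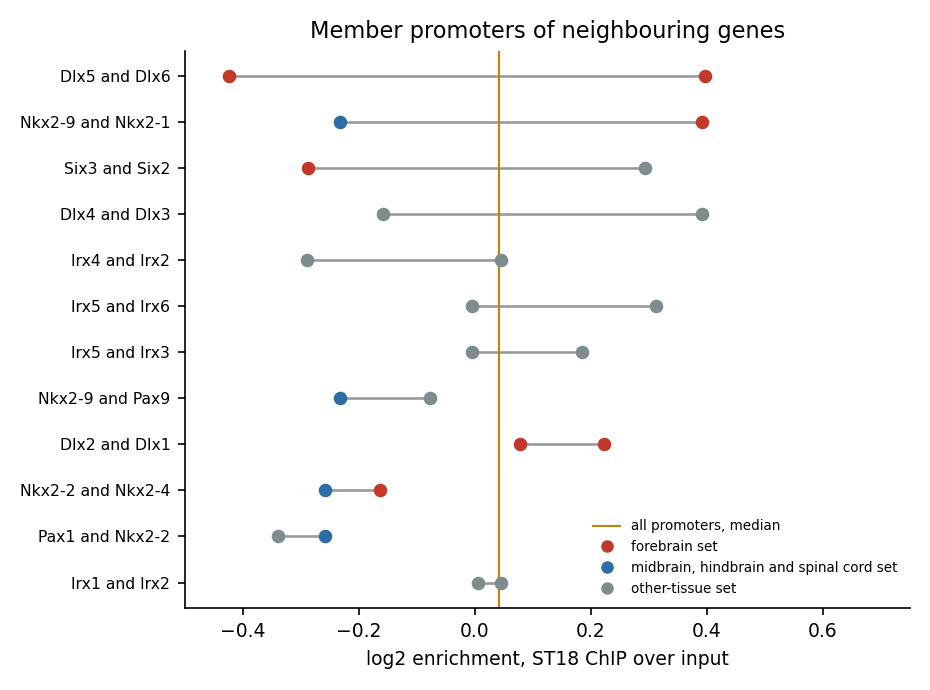
Log2 enrichment (horizontal axis) at both promoters of 12 of the 15 pairs of neighbouring member genes (vertical axis), joined by a line and coloured by tissue set; the upright line is the median of all promoters. The gap is widest for Dlx5 and Dlx6, at -0.42 and 0.40, and the points of Irx1 and Irx2 lie at 0.01 and 0.05.

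Genes that work with these factors were placed beside them. Of 19 other regional factors of the forebrain, 11 lay above the median of all promoters, with a median of 0.13 and a summed fold of 1.19 (0.985 to 1.46). They ran from Fezf2, which specifies subcortical projection neurons, at 0.50 (34 against 5 reads) to the nuclear receptor gene Nr2f1, which patterns caudal cortex, at -0.15. Partners of LIM-domain and Six-family factors had a median of -0.0035 over 16 promoters and a summed ratio of 0.819-fold (0.663 to 1.02), from Dach1 at 0.41 (23 against 3 reads) to Eya1, a coactivator of Six-family proteins, at -0.56 (9 against 13 reads). Of these 16, the interval of 1, Eya1, lay below 1 (0.0955 to 0.640), beside 3.24% of all promoters.

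Groucho corepressors, which homeodomain repressors recruit, and TALE homeodomain cofactors had a median of -0.06 over 15 promoters, with 4 above the median of all promoters and a summed ratio of 0.744-fold (0.605 to 0.920). The lowest were the Groucho genes Tle2 at -0.46 (18 against 16 reads) and Tle1 at -0.42 (16 against 14 reads), and the highest was Meis1 at 0.27. The interval lay below 1 in Tle2 and Tle1, 2 of the 15, beside 3.24% of all promoters. This list is 1 of 4 compared. Signals of the patterning centres had a median of -0.07 over 13 promoters and a summed ratio of 0.819-fold (0.661 to 1.02), from Fgf15 at 0.27 to Fgf17 at -0.34 (15 against 12 reads). No gene of these 4 lists passed the exact test adjusted over all windows, and the lowest adjusted p was 0.351, for Eya1. In the Groucho and TALE list 5 promoters, and in the signal list 7, held 10 or more input reads, beside 25.7% of all promoters, and all 12 of them were below 0 in log2 enrichment. How far the input count sets these medians was not tested.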

How the data were processed

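Reads per promoter window were taken as raw counts from the authors' deposited table, with 438960 ST18 and 160443 input reads over 21881 windows. Medians were 20 (interquartile range 14 to 26) and 7 (5 to 10) reads. Build mm9 and the tools MACS2 2.0.10.20120913, Bowtie, TopHat2 2.0.8, edgeR and HTSeq 0.5.4p1 are listed, with no role, in the submitters' processing notes. The log2 enrichment deposited by the authors was recomputed from the counts, with a scaling of 0.406 for ST18 reads and a pseudocount of 16, and matched within 1e-06 in all 21881 windows. The recomputed value is the one given. The windows carry no coordinates, so the deposited peak list was not used here.

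Folds, exact binomial intervals and tests, and conditional odds-ratio intervals were computed in Python 3.11.15 with scipy 1.17.1. The binomial test was checked on counts simulated from the binomial model that it assumes, so that check cannot cover PCR copies. Summed ratios carry no p. Full statistics went to the 8 highest and 8 lowest members, all Emx and Otx genes, and Lhx2, Pax6, Dlx1, Dlx2, Dlx5, Dlx6, Six3 and Nkx2-1. The sets, lists and members were chosen with earlier results of these data known. The neighbour comparison, leaving out single genes and the split by input reads were added after the values were seen. Nkx1-1, also listed for the spinal cord, had no row with that symbol. The values of some members enter the counts and sums but are not reported here singly. The alternatives were other pseudocounts, scaling, centring, an input filter, other thresholds and other groupings.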

Additional observations from a re-analysis of the deposited data

How the results depend on the processing

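With a pseudocount of 8 in place of 16, 6 members reached a log2 enrichment of 0.58 where none had, and with a pseudocount of 1, 19 did. Over all promoters the same settings gave 6.98% and 24.1%, and a smaller pseudocount by its construction widens the values at low counts. With a pseudocount of 1 the median of the members rose to 0.23 and that of the forebrain set to 0.44, beside 0.12 over all promoters. The other 23 of 27 results under an alternative stayed within 1.5 times or within the interval of the value given. Among them, the count of 0 could only stay 0 at a threshold of 1, with the input filter, when centred or when scaled to the promoter totals. The other-tissue median, 0.02, was -0.02 when scaled to the promoter totals or centred, and -0.03 without windows of 5 or fewer input reads. Without those windows the forebrain median fell from 0.16 to 0.09, and that of the members from 0.08 to 0.02. The forebrain ratio over other tissues was then 1.15 (0.863 to 1.54), where it had been 1.22. At 28 reads per window, depth limits every single-promoter value. No paired analysis was possible because ST18 reads come in a single column without a replicate label.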
